A study of Homo sapiens with 6 samples.

Results

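The 55 genes described here encode proteins of DNA replication and deoxynucleotide synthesis. They were chosen by symbol from the 57781 rows of a gene count table, and each symbol had a row. By role they form 6 sub-groups, with 9 genes of origin licensing, 14 of the replicative helicase and its activators, 9 of the polymerases and primase, 14 of the fork, 5 of nucleotide synthesis and 4 of chromatin duplication. RNA was sequenced from A549, an established human lung adenocarcinoma line, in 3 libraries labelled vector (genotype WT) and 3 labelled shMETTL3 (METTL3 knockdown). METTL3 is the catalytic subunit of the complex that writes N6-methyladenosine (m6A) on mRNA, and it was depleted with a short hairpin RNA from a plasmid, against the empty vector. The cells of both groups were grown in DMEM with serum and antibiotics. The sources used here do not say whether 1 hairpin or several were used, whether each of these libraries came from its own culture, or how long the cells were depleted. A general statement in the paper's methods says that experiments were repeated independently, without naming the sequencing, and the p-values below measure only the spread between these libraries, which may be technical.

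DNA replication begins with licensing. The origin recognition complex (ORC1-6), CDC6 and CDT1 load the ring of MCM2-7 onto DNA in G1, and geminin (GMNN) blocks CDT1 once S phase has begun. The kinase CDC7 with its activator DBF4, together with MCM10, CDC45 and the GINS complex, then turns the loaded ring into a moving helicase, behind which polymerases alpha, delta and epsilon copy the strands with the sliding clamp PCNA and its loader, replication factor C. Ribonucleotide reductase (RRM1 and RRM2), thymidylate synthase (TYMS), thymidine kinase (TK1) and dUTPase (DUT) keep the deoxynucleotide pools supplied and free of uracil, and many of these genes are textbook targets of the E2F factors.

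METTL3 itself had 887, 846 and 808 counts in vector libraries 1, 2 and 3 and 364, 399 and 307 counts in shMETTL3 libraries 1, 2 and 3. After scaling by the trimmed mean of M-values (TMM), these were 49.9 ± 0.676 CPM (counts scaled to a common library size, SD, n = 3) with the vector and 19.4 ± 0.525 CPM (SD, n = 3) with the hairpin, a log2 fold change of -1.36 (SE 0.067, edgeR adjusted p = 4.57e-16). The groups did not overlap, and 38.8% of the vector level remained. Library totals ran from 14931426 to 19108928 counts, and 15125 genes passed the filter on low counts, among them all 55 replication and nucleotide synthesis genes, whose raw counts ran from 34 (POLA2) to 6180 (PCNA) per library. All 10 epithelial and A549 markers had over 10 counts, with a summed level of 29753 to 31240 CPM in the vector and 18279 to 18916 CPM in the shMETTL3 libraries. The summed blood markers stood at 1.26 to 2.64 and 6.23 to 7.12 CPM, the fibroblast markers at 6.46 to 9.87 and 14.3 to 14.7 CPM and the endothelial markers at 0 to 0.184 and 1.45 to 2.02 CPM, with CD3E and VWF at 0 in every library. Over 10 counts in any library were seen for 2 of 6 blood, 2 of 6 fibroblast and 1 of 4 endothelial markers. The blood sum was carried by CD14, at 0.538 and 6.31 CPM, while HBB stood at 1.14 and 0.134 CPM. Of the epithelial and A549 markers, EPCAM (109 and 16.4 CPM) and KRT19 (67.8 and 12.7 CPM) fell most. AKR1C1 rose, from 1161 to 1341 CPM, and the rest stood between 39.3% (KRT18) and 78.8% (ALDH3A1) of their vector levels. The part of these markers in the results was not tested.

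Most of the 55 genes were lower after METTL3 depletion. With edgeR's quasi-likelihood test and a threshold of 0.05 after Benjamini-Hochberg adjustment over the 15125 genes, 42 of them fell, 5 rose (ORC4, ORC5, POLA1, RPA2 and TIPIN) and 8 did not pass (ORC2, ORC3, GINS3, GINS4, RFC1, CLSPN, UHRF1 and SLBP). The knockdown moved much of the transcriptome, with 66.6% of all genes called, 32.9% lower and 33.7% higher. Of those calls 50.6% were higher, and 65.8% with scaling by library size alone. The share of the 55 genes called lower, 76.4%, was therefore above the background, while the share called in either direction has to be read against a background that is itself high. Fold changes are given as log2 of shMETTL3 over vector, and their median was -0.57 for the 55 genes against 0.00 for all genes tested. In 49 of the 55 genes the 3 libraries of one group did not overlap those of the other, where 69.4% of all genes tested also did not overlap. Of the 55 genes, 9 fell by at least 1 on the log2 scale (CDT1, ORC1, CDC6, CDC45, MCM5, POLD2, LIG1, RRM2 and TK1), against 7.42% of all genes tested. Bulk libraries cannot tell fewer cells in a phase of the cycle from less RNA of a gene per cell.

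**Figure D1:**
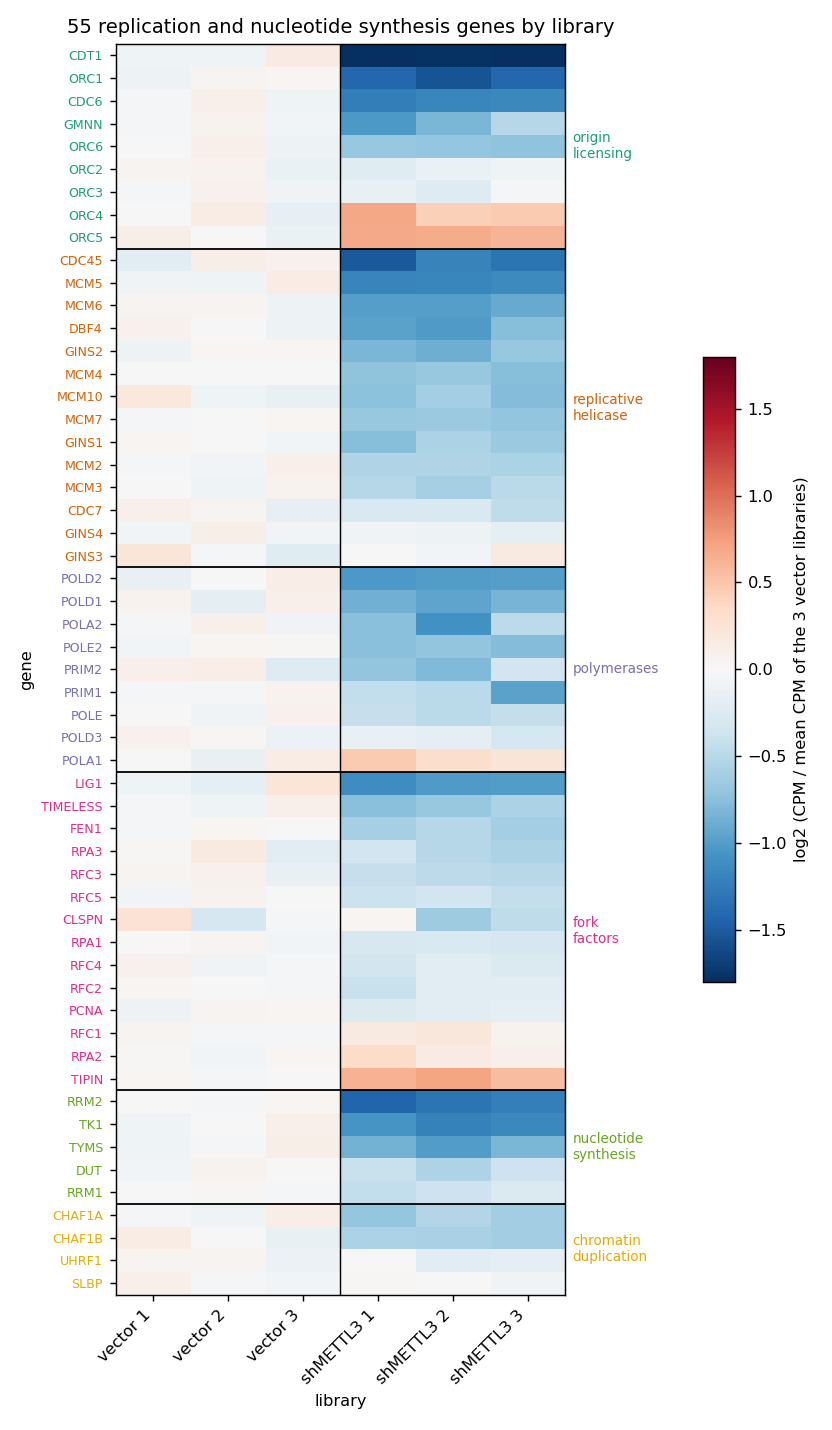
Heat map of the 55 genes (rows, by sub-group and in order of fold change) in the 6 libraries (columns), coloured by log2 of a library's CPM over the mean of the 3 vector libraries. The shMETTL3 columns are blue for most genes, deepest for CDT1 at -1.79, and red for ORC4, ORC5, POLA1, RPA2 and TIPIN.

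The sub-groups differed in how evenly they moved. Their counts stand beside 32.9% of all genes tested called lower and 33.7% called higher. With only 4 genes, the share of chromatin duplication is too coarse to set against these. Nucleotide synthesis had 5 of 5 genes lower, with the lowest median log2 fold change at -0.89. The replicative helicase had 12 of 14 lower and none higher, with a median of -0.70, and the polymerases had 8 of 9 lower and POLA1 higher, with a median of -0.61. Origin licensing was the most divided, with 5 of 9 genes lower, 2 higher and 2 not passing, and a median of -0.69 in a range from -1.79 to 0.65. The fork factors had 10 of 14 lower and 2 higher, with a median of -0.31, and chromatin duplication had 2 of 4 lower and none higher, with a median of -0.36. These last medians were -0.13 and -0.18 with scaling by library size alone, where the median of all genes was 0.18. Against the mean of the vector libraries, the median log2 difference of the helicase genes was -0.72, -0.64 and -0.69 in shMETTL3 libraries 1, 2 and 3, and that of the fork factors was -0.33, -0.31 and -0.37. Differences between sub-group medians were not tested, because the genes of a sub-group are not replicates, and pairs of partner genes are compared within libraries further on.

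**Figure D2:**
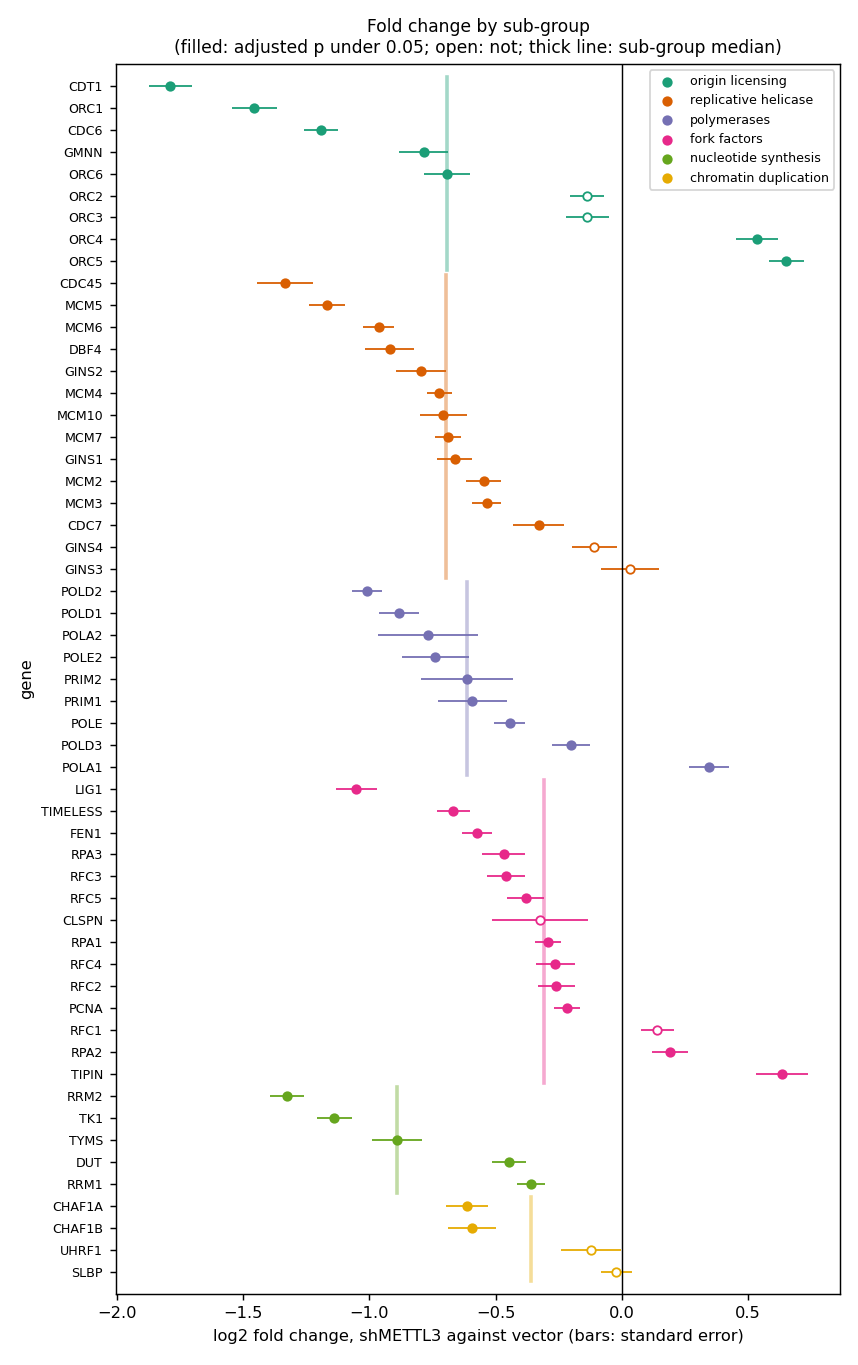
Log2 fold change of each gene, shMETTL3 against vector, with its standard error as a bar. Points are filled where the adjusted p was under 0.05 and open where it was not, and a thick line marks the median of each sub-group, from -0.89 in nucleotide synthesis to -0.31 in the fork factors.

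Many promoters of these genes carry letters of the E2F type, and the shares below show how widely. The windows, from 250 bases before to 50 bases after each RefSeq start on GRCh38.p14, were searched on both strands for TTTGGCGC, TTTCCCGC, TTTCGCGC and TTTGCCGC, of which matches may overlap each other. A window was found for 49 of the 55 genes, all but GINS4, MCM4, MCM5, POLD3, RPA2 and RPA3, and 24 of the 49 (49.0%) held a match, against 686 of the 10635 tested genes with a window (6.45%). Among genes with a single window the shares were 47.2% and 5.31%. A match was in 18 of the 38 promoters of genes that fell (47.4%) and in 6 of the 11 of genes that rose or did not pass (54.5%). By sub-group, a match was found in 8 of 11 promoters of helicase genes, 4 of 9 of licensing genes, 4 of 8 of polymerase genes, 5 of 12 of fork genes, 2 of 5 of nucleotide synthesis genes and 1 of 4 of chromatin duplication genes. Printed here are 4 promoters of genes that fell, then 2 of genes that rose and 1 of a gene that did not pass. Each was chosen from those that hold a match before the start. They run 5′ to 3′ on the gene's own strand, with the matched letters in capitals.
CDT1, fell, chr16:88803728-88803787, plus strand: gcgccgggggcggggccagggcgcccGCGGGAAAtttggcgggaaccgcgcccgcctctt
MCM6, fell, chr2:135876496-135876555, minus strand: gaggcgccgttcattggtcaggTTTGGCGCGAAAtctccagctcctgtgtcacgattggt
LIG1, fell, chr19:48170425-48170484, minus strand: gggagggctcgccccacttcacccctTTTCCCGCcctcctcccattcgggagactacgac
DUT, fell, chr15:48332144-48332196, plus strand: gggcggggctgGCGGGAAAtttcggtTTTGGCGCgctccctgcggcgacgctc
TIPIN, rose, chr15:66356714-66356773, minus strand: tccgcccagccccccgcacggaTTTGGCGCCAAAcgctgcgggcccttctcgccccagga
POLA1, rose, chrX:24693755-24693814, plus strand: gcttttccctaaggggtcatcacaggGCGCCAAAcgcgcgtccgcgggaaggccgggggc
ORC3, did not pass, chr6:87590097-87590134, plus strand: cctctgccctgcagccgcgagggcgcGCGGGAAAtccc

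The matches shown begin from 137 bases (POLA1) to 12 bases (ORC3) before the annotated start. The MCM6 and TIPIN stretches each hold a pair of overlapping matches on opposite strands, of which the nearer begins 86 and 62 bases before the start, and the DUT stretch holds 2 separate matches. The CCAAT box, searched as CCAAT, was in 29 of the 49 promoters (59.2%), against 42.7% of all, and the letters TTTGAA, which stand at the core of the cell cycle homology region of many mitotic promoters, were in 3 of the 49 (6.12%), against 13.7%. With a single window per gene, the shares were 58.3% of these genes and 37.2% of all for CCAAT, and 5.56% and 9.20% for TTTGAA. A match describes the sequence only, and binding was not measured in these libraries.

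Among the licensing genes, CDT1, ORC1 and CDC6 fell most, and the subunits of the recognition complex split. CDT1, which brings MCM2-7 to the origin, lies on the plus strand of chromosome 16 (GRCh37, 88870197 to 88875666). It stood at 31.6, 31.6 and 36.8 CPM with the vector and at 9.58, 9.68 and 9.64 CPM with the hairpin. The shMETTL3 libraries were close to each other and far below every vector library, and the 3.46-fold fall (log2 -1.79, SE 0.087, edgeR adjusted p = 3.17e-16) was the largest of the 55 genes. ORC1, the subunit of the complex that is made anew each cycle, was at 23.1, 25.4 and 25.0 CPM with the vector and at 9.22, 8.38 and 9.20 CPM with the hairpin. The groups were far apart, at a log2 fold change of -1.46 (SE 0.090, edgeR adjusted p = 6.65e-14). CDC6, the ATPase that joins ORC at the origin, had 59.3, 64.8 and 57.6 CPM against 25.6, 26.8 and 27.1 CPM, and again no library overlapped, with a 2.29-fold fall (log2 -1.19, SE 0.066, edgeR adjusted p = 5.85e-15). ORC1 has 1 named pseudogene, and counts could be shared with it.

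Of the other ORC subunits, ORC6 also fell, ORC4 and ORC5 rose, and ORC2 and ORC3 did not pass. ORC4, on chromosome 2, had 22.2, 24.4 and 20.2 CPM with the vector and 36.1, 29.8 and 30.7 CPM with the hairpin, each shMETTL3 library being the higher (log2 0.54, SE 0.084, edgeR adjusted p = 2.78e-06). ORC5, on chromosome 7 (GRCh37, 103766788 to 103848495, minus strand), had 31.8, 29.8 and 27.2 CPM against 47.5, 46.9 and 45.4 CPM. Its groups were also apart, and its 1.57-fold rise (log2 0.65, SE 0.068, edgeR adjusted p = 2.58e-09) was the largest of the 55 genes. ORC2 and ORC3 stood at 91.0% and 91.3% of their vector levels with overlapping groups and did not pass (edgeR adjusted p = 0.0681 and 0.162), and both passed as lower once offsets for GC content and length were fitted (log2 -0.25 and -0.22, edgeR adjusted p = 0.000299 and 0.0142). ORC2 also passed as lower without vector library 3 (log2 -0.20, edgeR adjusted p = 0.0042). ORC6, which is held more loosely in the complex, fell to 61.8% (log2 -0.69). Per length of merged exons, in CPM per kilobase (RPKM), ORC1, ORC2 and ORC5 stood at 7.85, 7.95 and 7.95 RPKM with the vector and at 2.86, 7.24 and 12.5 RPKM with the hairpin. Levels between genes depend on the length used, and per kilobase of the canonical transcript the same vector levels were 7.85, 10.8 and 15.4 CPM. GMNN, the inhibitor of CDT1, fell with it, from 24.8 ± 0.973 to 14.5 ± 2.70 CPM (SD, n = 3 each), at a log2 fold change of -0.79.

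All 6 subunits of the MCM2-7 ring fell, by unequal amounts. MCM2 had 35.4, 35.3 and 38.7 CPM with the vector and 25.2, 25.1 and 24.6 CPM with the hairpin. MCM3 had 80.4, 75.8 and 83.6 CPM against 55.8, 52.9 and 56.9 CPM. In both, the groups were well apart and the level fell to 68.4% and 69.1% of the vector mean. MCM4, which is on chromosome 8, had 174, 175 and 172 CPM against 106, 108 and 102 CPM. MCM7 had 148, 151 and 156 CPM against 94.5, 95.2 and 92.8 CPM. Neither overlapped, and they fell to 60.5% and 62.0%. MCM6 had 73.8, 73.7 and 66.9 CPM against 35.9, 36.1 and 38.1 CPM, a fall to 51.4%. MCM5 had 48.0, 47.2 and 54.9 CPM against 21.9, 22.2 and 22.6 CPM, a fall to 44.4%. The log2 fold changes thus ran from -0.54 (SE 0.058) for MCM3 to -1.17 (SE 0.071) for MCM5, and the highest edgeR adjusted p of the 6 was 9.78e-08, for MCM2.

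Since the ring holds 1 copy of each subunit, the transcripts were also compared with each other inside each library, which takes out the scaling between libraries. The ratio of MCM5 to MCM2 counts was 1.36, 1.34 and 1.42 with the vector and 0.871, 0.885 and 0.921 with the hairpin, a fall in every library. The ratio of MCM5 to MCM6 was 0.651, 0.641 and 0.820 against 0.611, 0.615 and 0.594, a much smaller shift. On the log2 scale the ratio of MCM5 changed by -0.62 to MCM2, -0.63 to MCM3, -0.48 to MCM7, -0.44 to MCM4 and -0.21 to MCM6, with no overlap between groups in any of the 5 pairs. Each pair had p = 0.1 in a two-sided exact permutation test, which 3 against 3 libraries cannot go below. Per kilobase of merged exons, MCM7 was the highest subunit and MCM5 the lowest in both groups, at 30.6 and 6.88 RPKM with the vector and 19.0 and 3.06 RPKM with the hairpin, in the order MCM7, MCM3, MCM4, MCM6, MCM2 and MCM5. The neighbours MCM2 and MCM5 (7.49 to 8.20 and 6.50 to 7.55 RPKM) and MCM4 and MCM6 overlapped in level with the vector, and neither pair did with the hairpin. Per kilobase of the canonical transcript, MCM7 was again highest, at 61.5 CPM with the vector, but MCM4 (42.8 CPM) stood above MCM3 (26.1 CPM), and MCM5 (14.5 CPM) stood above MCM2 (10.6 CPM) with the vector and below it with the hairpin (6.43 and 7.26 CPM). The GGACT form of the m6A consensus occurred at 2.02 per kilobase in the canonical MCM5 transcript and at 0.985 to 1.96 per kilobase in the other subunits, beside medians of 0.985 over the 55 genes and 0.915 over the 14017 tested genes with a matched transcript. Exons of MCM2 and MCM7 overlap those of opposite-strand genes over 23.6% and 7.9% of their length, and whether strand was used in the counting is not given in the sources used here.

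**Figure D3:**
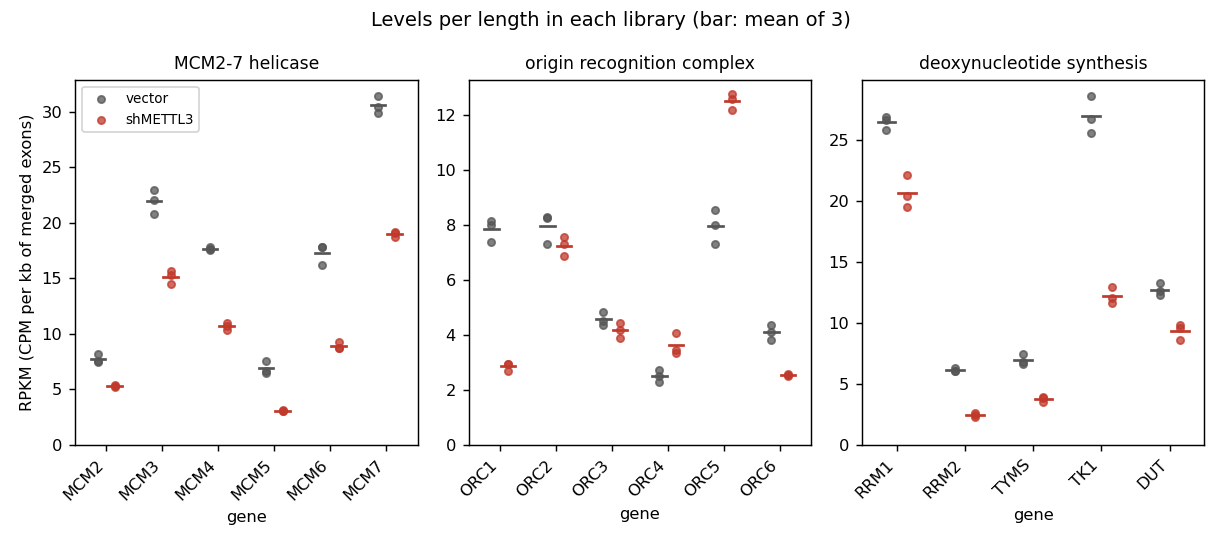
Levels in CPM per kilobase of merged exons (RPKM) in each library, grey for vector and red for shMETTL3, with a bar at the mean of 3, for the MCM2-7 subunits, ORC1-6 and the deoxynucleotide synthesis genes. The MCM2-7 subunits are all lower in red, by different shares, while ORC1 is lower and ORC5 higher than their vector levels of 7.85 and 7.95 RPKM, an order of genes that depends on the length used.

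Of the proteins that activate the ring, CDC45 fell most. It had 15.9, 19.7 and 19.4 CPM with the vector and 6.42, 7.98 and 7.37 CPM with the hairpin, a 2.52-fold fall without overlap (log2 -1.33, SE 0.111, edgeR adjusted p = 3.04e-11). DBF4, the activating subunit of the CDC7 kinase, fell to 53.1% of its vector level while CDC7 fell to 79.4% and did not pass with scaling by library size alone (edgeR adjusted p = 0.19), and the ratio of DBF4 to CDC7 counts went from 1.28, 1.25 and 1.35 to 0.799, 0.770 and 1.04. DBF4 has 3 named pseudogenes. The GINS complex was divided, with GINS1 at 63.2% and GINS2 at 57.8% of the vector level and GINS3 and GINS4 not passing. GINS3 had 12.3, 10.4 and 9.07 CPM against 10.6, 10.3 and 11.9 CPM (log2 0.03, SE 0.115, edgeR adjusted p = 0.816), and its sign turned to -0.07 without vector library 3 and to -0.03 without shMETTL3 library 3. GINS4, on chromosome 8, had 15.1, 16.8 and 15.1 CPM against 14.97, 14.7 and 13.9 CPM (log2 -0.11, SE 0.090, edgeR adjusted p = 0.289), and was at 0.06 with scaling by library size alone. The libraries of GINS3 overlapped, while the highest shMETTL3 library of GINS4 stood just under its lowest vector library. Opposite-strand lncRNA exons overlap 10.9% of GINS3 and 21.0% of GINS4. The median log2 fold change was -0.23 over genes on chromosome 8 and -0.18 over those on chromosome 19, which holds POLD1, LIG1, CHAF1A and UHRF1. The part of either in the values of these genes, MCM4 and GINS4 was not tested. MCM10 fell to 61.2%.

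In the polymerases, the catalytic and accessory subunits of one enzyme did not always move together. POLD2, a small subunit of polymerase delta, had 151, 165 and 179 CPM with the vector and 80.7, 81.9 and 83.2 CPM with the hairpin, a 2.01-fold fall (log2 -1.01, SE 0.058, edgeR adjusted p = 1.42e-14). POLD1, its catalytic subunit, had 39.1, 33.1 and 40.0 CPM against 20.6, 19.4 and 21.0 CPM, a 1.84-fold fall. Both were clear of any overlap. POLD3 had 30.6, 29.4 and 27.0 CPM against 26.6, 25.8 and 23.4 CPM, with the groups almost touching (log2 -0.20, SE 0.075, edgeR adjusted p = 0.0222), and its call was lost under 5 of 16 alternatives, with adjusted p up to 0.789. The ratio of POLD1 to POLD3 counts was 1.28, 1.12 and 1.48 against 0.774, 0.753 and 0.898, without overlap. In polymerase epsilon, POLE fell to 73.5% and POLE2 to 59.8% of the vector level.

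POLA1, the catalytic subunit of polymerase alpha, was the one polymerase gene that rose. It lies on chromosome X (GRCh37, 24711990 to 25015103) and had 22.7, 20.9 and 25.1 CPM with the vector and 31.9, 28.5 and 26.9 CPM with the hairpin. The shMETTL3 libraries were all higher, though the lowest of them came close to the highest vector library (log2 0.35, SE 0.081, edgeR adjusted p = 0.000506). Of 460 tested genes on chromosome X, 376 were called higher and 24 lower, with a median log2 fold change of 0.74, above that of POLA1, and the part of this in the POLA1 value was not tested. POLA2, the accessory subunit, had 3.51, 3.83 and 3.43 CPM against 2.12, 1.70 and 2.58 CPM, from 34 to 64 counts per library (log2 -0.77, SE 0.199, edgeR adjusted p = 0.00132), and exons of another gene on the same strand overlap 16.8% of its length. The ratio of POLA1 to POLA2 counts rose from 6.43, 5.43 and 7.27 to 14.9, 16.6 and 10.3, a 2.15-fold difference without overlap (two-sided exact permutation p = 0.1). The ratio of the primase pair was 1.82, 1.76 and 2.39 against 2.36, 2.43 and 1.28, a spread within the shMETTL3 libraries that leaves a sizeable change undetectable. PRIM1 and PRIM2 fell to 65.6% and 66.1%, and their ratio overlapped between groups (exact permutation p = 0.9). Exons of a same-strand lncRNA and of PRIM2BP overlap 16.9% and 12.9% of PRIM2. Same-strand exons of another protein-coding gene and of NACA overlap 10.9% and 4.2% of PRIM1.

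**Figure D4:**
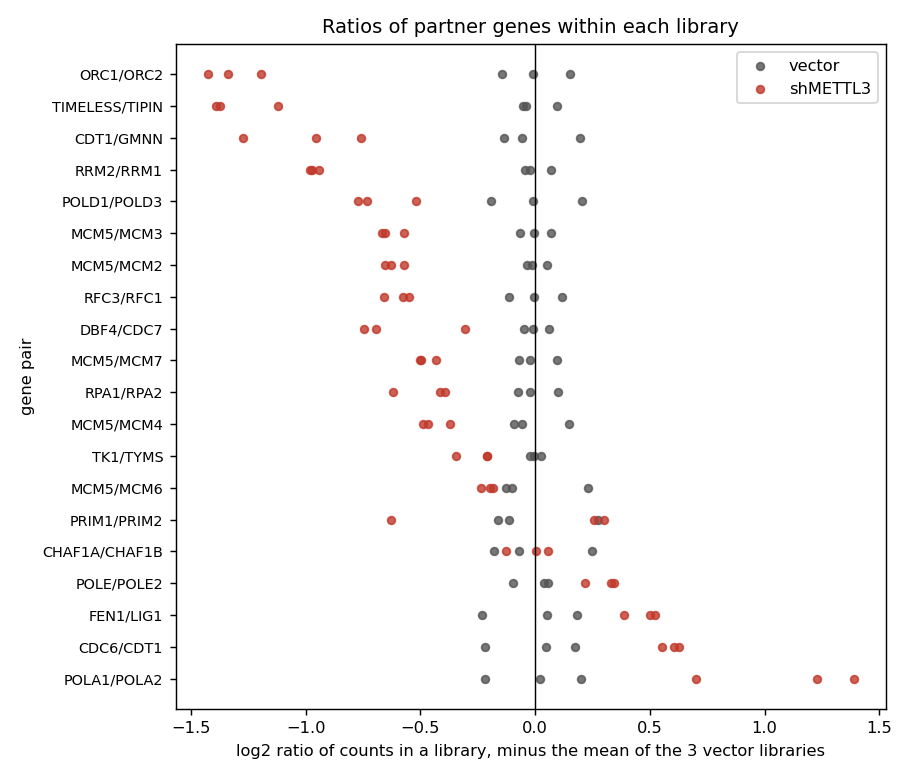
Log2 ratio of the counts of 20 pairs of partner genes in each library, minus the mean of the 3 vector libraries (grey, vector; red, shMETTL3). In 18 pairs the groups do not overlap, from ORC1/ORC2 at -1.32 to POLA1/POLA2 at 1.11, and PRIM1/PRIM2 and CHAF1A/CHAF1B overlap.

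At the fork, the ligase fell most and the clamp little. LIG1, which seals Okazaki fragments, had 43.0, 40.9 and 52.8 CPM with the vector and 20.9, 22.4 and 22.6 CPM with the hairpin (log2 -1.05, SE 0.082, edgeR adjusted p = 9.53e-12). FEN1, the nuclease that trims the same fragments, had 61.2, 63.8 and 61.7 CPM against 41.3, 43.5 and 40.6 CPM (log2 -0.57, SE 0.059, edgeR adjusted p = 2.34e-09). Both were lower in every shMETTL3 library, and LIG1 more so, with the ratio of FEN1 to LIG1 counts at 1.42, 1.56 and 1.17 against 1.97, 1.94 and 1.80. PCNA, by far the highest of the 55 genes per length at 254 RPKM with the vector, had 334, 370 and 365 CPM against 298, 308 and 315 CPM. It fell to 86.1% (log2 -0.22, SE 0.051, edgeR adjusted p = 0.000606) and did not pass with scaling by library size alone (log2 -0.04, edgeR adjusted p = 0.494). PCNA has 3 named pseudogenes, whose reads may be counted with it.

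TIMELESS and TIPIN, whose proteins form 1 complex that protects the fork, moved in opposite directions. TIMELESS had 62.0, 59.7 and 67.2 CPM with the vector and 37.5, 39.1 and 42.5 CPM with the hairpin (log2 -0.67, SE 0.064, edgeR adjusted p = 6.19e-10). TIPIN, on chromosome 15 (GRCh37, 66628529 to 66679084, minus strand), had 9.03, 8.62 and 8.83 CPM against 13.7, 14.4 and 12.97 CPM (log2 0.64, SE 0.102, edgeR adjusted p = 4.07e-06). Neither gene's groups overlapped. There were 6.85, 6.90 and 7.59 TIMELESS counts per TIPIN count with the vector and 2.74, 2.71 and 3.27 with the hairpin, a 2.45-fold lower ratio (two-sided exact permutation p = 0.1). The processed pseudogene RPL9P25 overlaps 21.1% of the TIPIN exons on the same strand, and reads from it cannot be told apart there. CLSPN, their partner in checkpoint signalling, was near the low end at 3.53 to 5.18 CPM with the vector and 2.79 to 4.45 CPM with the hairpin. Its groups overlapped and it did not pass (log2 -0.32, edgeR adjusted p = 0.134), but it did without vector library 2 (log2 -0.46, edgeR adjusted p = 0.0439) or shMETTL3 library 1 (log2 -0.55, edgeR adjusted p = 0.0223).

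The subunits of the single-strand binding protein RPA and of the clamp loader moved by unequal amounts. RPA2 had 34.4, 33.0 and 34.7 CPM with the vector and 42.7, 37.7 and 36.1 CPM with the hairpin (log2 0.19, SE 0.070, edgeR adjusted p = 0.0179). Its groups were apart by a narrow gap, and the call was lost under DESeq2 (adjusted p = 0.0835), without vector library 2 and without shMETTL3 library 1 (edgeR adjusted p = 0.0739 and 0.188). RPA1 and RPA3 fell to 81.7% and 72.2% of the vector level, RPA1 not passing with scaling by library size alone (edgeR adjusted p = 0.0555), and the ratio of RPA1 to RPA2 counts went from 3.81, 4.14 and 3.67 to 2.52, 2.90 and 2.94. RPA2 and RPA3 have 3 and 2 named pseudogenes. Of the clamp loader, RFC2, RFC3, RFC4 and RFC5 fell to between 72.8% and 83.7%, of which RFC2 and RFC4 did not pass with scaling by library size alone (edgeR adjusted p = 0.317 and 0.316), and the large subunit RFC1 stood at 110% and did not pass (log2 0.14, edgeR adjusted p = 0.0532). RFC1 passed as higher under 6 of 16 alternatives, so that it lies at the threshold. The ratio of RFC3 to RFC1 counts was 0.750, 0.816 and 0.696 against 0.504, 0.477 and 0.514.

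Each gene of nucleotide synthesis fell. RRM2, the small subunit of ribonucleotide reductase that is made in S phase, lies on the plus strand of chromosome 2 (GRCh37, 10260825 to 10351851). It had 55.5, 54.9 and 57.2 CPM with the vector and 20.8, 22.4 and 23.7 CPM with the hairpin, a 2.51-fold fall (log2 -1.33, SE 0.067, edgeR adjusted p = 8.75e-16). RRM1, the large subunit, which is more stable through the cycle, had 113, 114 and 109 CPM against 82.5, 86.2 and 93.6 CPM (log2 -0.36, SE 0.055, edgeR adjusted p = 2.12e-06). Neither overlapped, and RRM2 fell further than its partner, with 0.492, 0.483 and 0.523 RRM2 counts per RRM1 count against 0.253, 0.260 and 0.254. That is a 1.95-fold lower ratio, at the smallest p the two-sided exact permutation test allows (p = 0.1). RRM2 has 3 named pseudogenes.

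TK1, the salvage kinase for thymidine, had 47.1, 49.3 and 52.8 CPM with the vector and 23.9, 21.5 and 22.2 CPM with the hairpin (log2 -1.14, SE 0.070, edgeR adjusted p = 5.93e-14). TYMS, which makes thymidylate from dUMP, had 15.9, 16.3 and 18.1 CPM against 9.32, 8.38 and 9.51 CPM (log2 -0.89, SE 0.099, edgeR adjusted p = 1e-08). Both genes fell without overlap, and the ratio of TK1 to TYMS counts moved only from 2.95, 3.01 and 2.92 to 2.56, 2.56 and 2.33. ENOSF1 on the opposite strand overlaps 39.9% of the TYMS exons, so its values are uncertain if strand was not used in counting. DUT, which removes dUTP, had 45.1, 48.6 and 46.5 CPM against 35.3, 31.7 and 36.1 CPM (log2 -0.45, SE 0.067, edgeR adjusted p = 1.38e-06), and its 8 named pseudogenes are the most of any of the 55 genes, while DUT-AS1 overlaps 14.5% of its exons on the opposite strand.

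Chromatin duplication was split between the assembly factor and the rest. CHAF1A, the large subunit of chromatin assembly factor 1, had 23.7, 23.0 and 26.4 CPM with the vector and 15.1, 16.9 and 15.8 CPM with the hairpin (log2 -0.61, SE 0.083, edgeR adjusted p = 3.06e-07). CHAF1B, its partner, had 19.4, 17.5 and 16.1 CPM against 11.9, 11.8 and 11.4 CPM (log2 -0.59, SE 0.094, edgeR adjusted p = 3.49e-06). The pair fell to like shares, 65.3% and 66.3%, and their ratio overlapped between groups (exact permutation p = 0.9). SLBP, which binds the stem-loop of histone mRNA, had 49.9, 45.8 and 45.4 CPM against 47.5, 46.6 and 44.9 CPM. UHRF1, which carries DNA methylation over to the new strand, had 8.91, 8.86 and 8.03 CPM against 8.54, 7.48 and 7.68 CPM. For SLBP and UHRF1 the libraries overlapped and neither passed (log2 -0.02, SE 0.062 and log2 -0.12, SE 0.118, edgeR adjusted p = 0.781 and 0.369), and the sign of each turned with scaling by library size alone (log2 0.15 and 0.05), where SLBP also passed as higher (edgeR adjusted p = 0.0392).

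In all, 20 pairs of partners were compared within libraries, and 18 of them did not overlap between groups, each with a two-sided exact permutation p = 0.1 (0.111 after Benjamini-Hochberg adjustment over the 20). Ratios of other gene pairs were not computed, and 69.4% of single genes also did not overlap, so the count says nothing particular to partners. The lowest were ORC1 to ORC2, at -1.32 on the log2 scale, and TIMELESS to TIPIN, at -1.30. CDT1 lost on its inhibitor GMNN, by -0.997 on the log2 scale, from 1.29, 1.22 and 1.53 CDT1 counts per GMNN count to 0.791, 0.691 and 0.553. CDC6 gained on CDT1, from ratios of 1.88, 2.05 and 1.56 to 2.67, 2.77 and 2.81.

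Other genes near these pathways were taken from 5 further lists. Of 26 other replication factors tested, 15 fell (57.7%, against 32.9% of all genes), 3 rose and 8 did not pass, with a median log2 fold change of -0.33. The lowest were TICRR (-1.38), which brings CDC45 to the origin, DBF4B (-1.35), a relative of DBF4, and CHTF18 (-1.24), of an alternative clamp loader, and the highest were POLE3 (0.65), a histone-fold subunit of polymerase epsilon, and RIF1 (0.44), which sets replication timing. RNASEH2A, also listed, was not tested for low counts. Of 30 other nucleotide metabolism genes, 15 fell, 10 rose and 5 did not pass, with a median of -0.13. Over all genes the shares were 32.9% lower and 33.7% higher, and the 10 that rose are near the second. SHMT1 (-0.76), DTYMK (-0.67) and IMPDH2 (-0.63), of the folate cycle, thymidylate phosphorylation and guanine nucleotide synthesis, were lowest, and CTPS1 (1.13), of CTP synthesis, and ADSL (0.67), of purine synthesis, were highest. A smaller share of these than of the 55 genes fell, and the lists were not tested against each other.

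Lists of cell division and repair genes were also counted. Of 25 mitosis genes, 25 fell and none rose, against 32.9% and 33.7% of all genes. Their median log2 fold change was -1.06, lower than that of any of the 6 sub-groups. They ran from PRC1 (-1.98, on 4 to 24 counts per library), CDC25C (-1.57) and KIF20A (-1.54), of spindle and mitotic entry, up to CENPE (-0.61) and CDC25B (-0.28). Of 21 genes of E2F and RB family regulation, 11 fell and 6 rose, beside 32.9% and 33.7% of all genes, and 4 did not pass, with a median of -0.27. CCNA2 (-1.31), the S and G2 phase cyclin, MYBL2 (-1.24) and CDK2 (-1.22) were lowest, and RBL1 (0.62) and E2F6 (0.36) were highest. Of 26 tested recombination and Fanconi anaemia genes, 10 fell (38.5%, against 32.9% of all genes), 4 rose and 12 did not pass, with a median of -0.17, from BLM (-1.38), FANCA (-1.18) and EXO1 (-1.14) to RAD51D (0.38) and PALB2 (0.42). Cell cycle phase was not measured in these cultures, and the part of the mitosis genes' fall in that of the replication genes was not tested.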

How the data were processed

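RNA of A549 cells with the METTL3 hairpin or the empty vector was sequenced in 6 libraries. The counts deposited by the authors are whole numbers of reads per gene, not normalized, on hg19. The submitters' processing notes name cutadapt 3.0, HISAT2 2.2.1, SAMtools 1.13 and HTSeq 0.13.5, while the paper's methods give other versions of HISAT2 and htseq. The annotation and strand setting are not given in the sources used here, so genes with antisense partners or pseudogenes are uncertain where named. Of 57781 rows, 28913 had a count.

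From these counts, edgeR 4.0.16 (R 4.3.3) was run with TMM scaling, filterByExpr and glmQLFTest on the group alone, with Benjamini-Hochberg adjustment over 15125 genes. CPM are TMM-scaled, and RPKM are those CPM per kilobase of merged exons. A count of 3, taken as the floor, equals 0.149 to 0.189 CPM, which covers counting error only. Counts of partner genes, with 0.5 added, were compared as log2 ratios within libraries by a two-sided exact permutation test. Coordinates and transcripts are from GENCODE on GRCh37, and promoters from RefSeq. Alternatives were RLE, upper-quartile and library-size scaling, other filters, DESeq2 1.42.0, limma-voom (limma 3.58.1), a replicate block, offsets for GC content and length, stricter calls and each library left out. The scripts were tested on simulated data in which few genes changed, which did not test the scaling for a broad change like this one. Same-numbered libraries did not deviate together (correlations 0.069, -0.024 and 0.039), so numbers were not used as pairs. The genes and lists were chosen with earlier results of these data known. Named with values per library were MCM2-7, the 3 lowest and 2 highest genes of each larger sub-group and all genes of the 2 smaller ones. Genes of described pairs were given by their ratio, not all of them with their own values per library. In the other lists, the 3 lowest and 2 highest that passed without overlap were named by log2 fold change. PCNA, CLSPN and the genes at the threshold were added after their values were seen.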

Additional observations from a re-analysis of the deposited data

How the results depend on the processing

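Of the 55 genes, 38 kept their direction and their side of the threshold under all 16 alternatives run per gene, and 17 changed in at least 1. The median over the 55 genes was -0.55 with upper-quartile scaling and -0.40 with scaling by library size alone, where the median of all genes tested moved from 0.00 to 0.18. With library size alone, 36 genes were lower and 7 higher, CDC7, POLD3, PCNA, RFC2, RFC4 and RPA1 did not pass, and the medians were -0.52 for licensing, -0.52 for the helicase, -0.44 for polymerases, -0.13 for fork factors, -0.71 for nucleotide synthesis and -0.18 for chromatin duplication. In that setting ORC2, ORC3, GINS4, UHRF1 and SLBP turned to 0.035, 0.039, 0.065, 0.052 and 0.15. SLBP also turned with upper-quartile scaling (0.0022), once GC content and length were fitted (0.032) and without vector library 1 (0.018, in a range from -0.052 with each library left out), and GINS3 without vector library 3 (-0.073) and without shMETTL3 library 3 (-0.030), in a range up to 0.15. The offsets gave -0.75 for the helicase and -0.36 for fork factors. The cause was not tested. Requiring an absolute log2 fold change of at least 1 left 9 lower and 0 higher, by its construction. Across the fits that left out 1 library each, the medians ran from -0.58 to -0.55 over the 55 genes, from -0.74 to -0.65 for licensing, from -0.73 to -0.68 for the helicase, from -0.72 to -0.61 for polymerases, from -0.33 to -0.28 for fork factors, from -0.93 to -0.83 for nucleotide synthesis and from -0.38 to -0.31 for chromatin duplication. DESeq2 called 41 lower and 4 higher. With the replicate block, edgeR called 42 lower and 6 higher, adding RFC1 (adjusted p = 0.0449), and DESeq2 called 36 lower and 4 higher, without CDC7, POLA2, PRIM2, POLD3, RFC2, RFC4 and RPA2 (adjusted p from 0.0562 for RFC2 to 0.172 for RPA2). The low counts of POLA2, PRIM2 and CLSPN limit what their values can show.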
